A study of Mus musculus with 42 samples.

Results

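Cytosolic ribosomal protein mRNAs were followed in mouse bone-marrow-derived macrophages (BMDM) stimulated with bacterial lipopolysaccharide (LPS) or with the saturated fatty acid palmitate. The members were all protein-coding genes of the count table whose symbol starts with Rpl or Rps and a digit, together with Rpsa, Rplp0, Rplp1 and Rplp2, without the Rps6k kinases and without symbols ending in -ps. This gave 84 of 37310 genes. They comprised 75 ribosomal proteins of the standard set, 44 of the large subunit and 31 of the small subunit, and 8 paralogs with a changed symbol, namely Rpl3l, Rpl7l1, Rpl10l, Rpl22l1, Rpl36al, Rpl39l, Rps27l and Rps27rt. The last, Rps19bp1, has a matching symbol but encodes a binding partner of Rps19 and not a ribosomal protein. Of the 84 genes, 81 passed the filter on low counts, among the 11624 genes tested. Rpl10l, Rpl39l and Rpl3l did not pass it, with 0, 30 and 14 counts over all 42 libraries.

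The series compares BMDM of wild-type (WT) mice with BMDM labelled knockout (KO) for the transcription factor IRF5, in 14 groups of 3 libraries. Per the study's methods, KO mice carry Irf5 flox/flox alleles and LysM-Cre, a Cre recombinase expressed from the Lyz2 locus, and bone-marrow cells were differentiated with L929 conditioned medium, so that deletion depends on Lyz2 activity in the cultured cells. Each genotype has untreated cells (Control) at 0, 2 and 24 h and palmitate- and LPS-treated cells at 2 and 24 h. All mice were young males per the methods, with 1 age range in weeks stated for the whole study and none for single groups. Whether the WT mice carried the floxed alleles or Cre is not given in the sources used here, nor whether the 3 libraries of a group came from separate mice or cultures, so p-values measure only the spread between libraries.

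Libraries held between 2848793 and 7743442 counts. Irf5 itself was not lower in the libraries labelled KO: it had a lowest, median and highest level of 210, 250 and 389 CPM (counts scaled to a common library size) in the 21 WT libraries and 267, 294 and 430 CPM in the 21 libraries labelled KO. The counts are summed over the gene and do not resolve the floxed part. Lyz2 was lower, with medians of 10186 CPM in WT and 5576 CPM in libraries labelled KO, although 1 Control 0 h library labelled KO reached 8766 CPM and lay within the WT range, which started at 8025 CPM. Macrophage markers were abundant in all libraries, whereas markers of T or NK cells and of erythroid cells summed to at most 1.76 and 0.688 CPM. B cell markers reached 13.2 CPM, granulocyte precursor markers 68.1 to 316 CPM and fibroblast markers 0 to 320.4 CPM, the highest sums of the last 2 lists being in libraries labelled KO. LPS raised all 6 genes of its marker list at both times and in both genotypes.

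The cytosolic ribosome makes all proteins encoded in the nucleus. Its small subunit decodes the mRNA and its large subunit joins amino acids, and each ribosomal protein is needed in about equal amounts. Many ribosomal protein mRNAs begin with a 5′ terminal oligopyrimidine (TOP) tract, through which the mTORC1 kinase and the RNA-binding protein LARP1 control their translation and stability. Some subunits have paralogs that can take their place in part of the ribosomes, and macrophages change their protein synthesis when they are activated.

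To show what such starts look like, windows from 10 bases before to 20 bases from the annotated start were read from RefSeq (GRCm38.p6). They are given for the 2 members of the standard set with the smallest adjusted p under LPS at 24 h in both genotypes and for 2 pairs of a subunit and its paralog. Capitals mark a TOP-like tract, here a C followed by at least 4 pyrimidines and starting within 10 bases of the annotated start. For a gene with more than 1 window, a window with the tract was shown where there was any. Rpl10a, Rps27l and Rpl22 each had 2 windows, of which 1 held the tract.
Rpsa, chr9:120127756-120127785, plus strand: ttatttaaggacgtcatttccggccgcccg
Rpl10a, chr17:28328461-28328490, plus strand: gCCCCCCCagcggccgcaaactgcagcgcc
Rps27, chr3:90213629-90213658, minus strand: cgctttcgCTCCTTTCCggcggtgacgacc
Rps27l, chr9:66946076-66946105, plus strand: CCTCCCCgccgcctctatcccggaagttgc
Rpl22, chr4:152324426-152324455, plus strand: CTTCTggaatgttccagctcccactgacag
Rpl22l1, chr3:28805498-28805527, plus strand: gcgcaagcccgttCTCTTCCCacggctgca
The tract of Rps27 spans its annotated start, whereas the window of Rpsa holds no such tract. The tracts of Rpl10a, Rps27l and Rpl22 lie wholly before the annotated start, and that of Rpl22l1 lies after it. In Rps27l and Rpl22 the tract is at the upstream edge of the window. The window of Rpl22 also lies upstream of that gene's start in the gene annotation used here, at chr4:152325742. Windows were found for 55 of the 75 ribosomal proteins of the standard set, and 34 of these 55 genes (61.8%) had the tract in at least 1 window, against 34.4% of all 27025 genes with a window. Under LPS at 24 h the median log2 fold change in WT was -0.16 over the 34 genes with the tract and -0.22 over the 21 without it. The match depends on the annotated start, and no test was made.

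The 75 standard-set mRNAs took 1.87% to 2.92% of the counts of a library, with a median of 2.43%. The highest counts fell on Rpsa (the laminin receptor and small subunit protein), Rplp0 and Rplp1 (proteins of the large subunit stalk), with mean levels over all libraries of 1106, 1052 and 905 CPM. The median over the 75 was 266 CPM. The lowest were Rpl39, Rps13 and Rpl27, at 58.5, 79.9 and 86.7 CPM. Per kilobase of the shortest principal transcript, the mean levels of the stalk proteins Rplp1 and Rplp2 were highest, at 1813 and 1625 CPM per kilobase, followed by Rpl26 at 1396 CPM per kilobase. Each tested paralog was lower than its partner on the same scale. Rpl36al reached 124 CPM per kilobase beside 189 for Rpl36a, which was above the standard-set members Rpl39 at 95.5 and Rps20 at 65.1. Rps27l reached 44.3 beside 289 for Rps27, while Rpl22l1 had 14.2 beside 682 for Rpl22. Reads that fit a processed pseudogene equally well may be lost from these counts. The 194 named pseudogene rows held 0.00917% of counts. The coefficient of variation of the 14 group means ranged from 6.67% for Rpl18 to 16.1% for Rpl10a, with a median of 12.1%.

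The summed level of the 75 mRNAs was highest in WT Control 0 h and lowest after 24 h of LPS. WT Control 24 h libraries had sums of 22421, 23046 and 23059 CPM and WT LPS 24 h libraries had 18556, 19486 and 22452 CPM. Libraries labelled KO had 21616, 23007 and 23034 CPM at Control 24 h and 19038, 19183 and 19482 CPM at LPS 24 h. The LPS and Control libraries thus did not overlap in the libraries labelled KO, whereas in WT the highest LPS library lay slightly above the lowest Control library and the groups overlapped. Group means were 22842 ± 365 and 20164 ± 2035 CPM in WT, and 22552 ± 811 and 19234 ± 227 CPM in libraries labelled KO (SD, n = 3). The unscaled share of all counts did not overlap in either genotype. It was 2.36% to 2.41% in WT Control 24 h and 1.90% to 2.18% in WT LPS 24 h. In libraries labelled KO it was 2.29% to 2.42% and 1.91% to 1.95%. In bulk RNA, fewer cells of a type and less mRNA per cell cannot be told apart, and a lower share can also come from a rise of other transcripts.

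**Figure D1:**
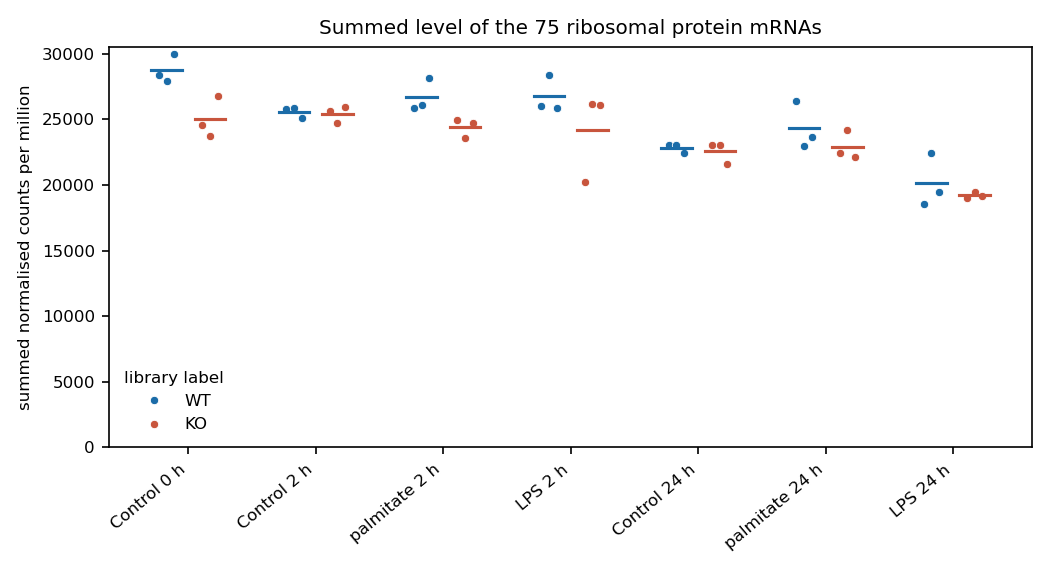
Summed level of the 75 ribosomal protein mRNAs in each library, in CPM on an axis from 0, by condition (horizontal axis); points are libraries and bars are means of the 3 libraries of a group. WT Control 0 h is highest at 28726 CPM and the LPS 24 h groups are lowest, and 1 LPS 2 h library labelled KO lies at 20251 CPM, apart from the other libraries of its group.

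After 24 h of LPS, ribosomal protein mRNAs were lower than in Control 24 h in both genotypes, by a modest amount. Of the 81 members tested, 29 were lower and 4 higher (Rpl7l1, Rpl36al, Rps27l and Rpl19) in WT, where 19.9% of all genes tested were called lower and 19.6% higher. In the libraries labelled KO, 40 members were lower and 2 higher, where 21% of all genes were called lower and 19.9% higher. The median log2 fold change of the 75 was -0.19 in WT and -0.25 in libraries labelled KO, against -0.01 over all genes tested in each. The test was edgeR's quasi-likelihood test with Benjamini-Hochberg adjustment over all genes, and calls are at an adjusted p under 0.05. Without WT LPS 24 h replicate 1, 19 members were called in WT in place of 33.

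Both subunits took part. In WT, 13 of 44 large subunit members were lower (median -0.16) and 15 of 31 small subunit members (median -0.22). The corresponding counts in libraries labelled KO were 24 and 16 (medians -0.24 and -0.25). The ratio of the summed large to the summed small subunit level was 1.60 to 1.61 in WT Control 24 h and 1.67 to 1.74 in WT LPS 24 h, without overlap. It was 1.62 to 1.64 and 1.68 to 1.70 in libraries labelled KO. The ratio also reached such values without LPS, with 1.60 to 1.68 in WT Control 0 h and 1.65 to 1.71 in KO Control 0 h. Its highest value, 1.82, was in KO LPS 2 h replicate 1, the shallowest library. Rpl19, the 1 standard-set member called higher in WT, changed by 0.16 ± 0.07 (SE, edgeR adjusted p = 0.0496) and gave 0.04 in libraries labelled KO. Its call in WT was lost in 10 of 12 alternative settings.

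Rpsa had 1221, 1192 and 1164 CPM in WT Control 24 h and 730, 863 and 758 CPM in WT LPS 24 h, and libraries labelled KO had 1230, 1183 and 1098 CPM against 755, 792 and 807 CPM. All LPS libraries of Rpsa lay below all Control libraries of that time, with log2 fold changes of -0.61 ± 0.07 and -0.58 ± 0.07 (SE, n = 3 per group, edgeR adjusted p = 2.17e-10 and 8.18e-10). Such a lack of overlap was common at LPS 24 h. In either direction, 48.1% of all genes tested showed it in WT and 50.2% in libraries labelled KO. Of the 75 standard-set mRNAs, 32 and 58 were lower without overlap, and 0 and 1 higher. Rpl10a, the protein of the L1 stalk of the large subunit, had 100.5, 99.6 and 91.6 CPM in WT Control 24 h and 56.3, 67.7 and 71.0 CPM in WT LPS 24 h. Its libraries labelled KO went from 95.3, 96.8 and 86.9 CPM to 55.2, 64.4 and 57.1 CPM, again without overlap. The log2 fold changes of Rpl10a were -0.57 ± 0.09 and -0.66 ± 0.09 (SE, edgeR adjusted p = 2.78e-07 and 1.41e-08).

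Rps16, a small subunit protein whose tail contacts the tRNA, changed by -0.54 ± 0.11 in WT and -0.49 ± 0.11 in libraries labelled KO on the log2 scale (SE). Rpl3, which lies close to the peptidyl transferase centre, went from 421, 413 and 397 CPM to 303, 338 and 332 CPM in WT. In libraries labelled KO it went from 417, 419 and 384 CPM to 285, 285 and 290 CPM, and the groups of Rpl3 did not overlap in either genotype. Its log2 fold changes were -0.34 ± 0.07 and -0.50 ± 0.07 (SE, edgeR adjusted p = 0.000145 and 9.55e-08). Rpl13, Rps4x, Rpl4, Rpl7, Rpl10 and Rpl12 were called lower in both genotypes, with log2 fold changes between -0.22 and -0.42. Rps4x is encoded on the X chromosome, and Rpl10 joins the large subunit late in its assembly.

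Several well-known members did not pass the test. Rps6, the substrate of S6 kinase, changed by -0.05 ± 0.10 and -0.10 ± 0.10 on the log2 scale in WT and in libraries labelled KO (SE), and Rplp0 by -0.04 ± 0.07 and -0.05 ± 0.07. Rplp1 was called lower in both, at -0.18 and -0.25, whereas its dimer partner Rplp2, at -0.08 and -0.16, was not. Of Rpl5 and Rpl11, which form a particle with 5S rRNA that binds MDM2, Rpl5 was lower at -0.20 and -0.31, and Rpl11 gave -0.05 and -0.11 without passing the test. The ubiquitin fusion gene Rps27a gave 0.08 and -0.12, and Rpl13a, known for its release from the ribosome in interferon-treated monocytes, gave -0.10 and -0.13, none of which passed. Rps19 and Rpl23 were lower in both genotypes, between -0.23 and -0.32. Rps3 and Rpl26 passed in libraries labelled KO, at -0.24 and -0.28, and gave -0.12 and -0.20 in WT. Rpl38 gave 0.00 in WT and -0.20 in libraries labelled KO, and Rps25 gave -0.22 and -0.25, without passing the test.

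Among the 5 paralogs tested, 2 were higher at LPS 24 h than at Control 24 h in both genotypes. Rpl7l1, a paralog of Rpl7 found in early large subunit precursors, rose from 63.4, 64.6 and 59.6 CPM to 78.4, 89.2 and 83.0 CPM in WT. In libraries labelled KO, Rpl7l1 rose from 63.8, 63.1 and 62.4 CPM to 89.9, 83.8 and 88.9 CPM. Neither genotype showed overlap, and the log2 fold changes were 0.42 ± 0.09 and 0.47 ± 0.08 (SE, edgeR adjusted p = 6.42e-05 and 6.90e-06), while Rpl7 fell by 0.24 and 0.33. Rpl36al was higher than at Control 24 h in both genotypes, by 0.33 ± 0.11 and 0.36 ± 0.11 on the log2 scale (SE). It went from 55.9 to 59.2 CPM to 70.9 to 73.8 CPM in WT. Its mean at Control 0 h was 72.3 CPM in WT and 71.6 CPM in libraries labelled KO. The means of Rpl36al at LPS 24 h, 71.9 and 70.5 CPM, were thus not above those at 0 h. Its partner Rpl36a gave -0.22 ± 0.14 in WT and was lower in libraries labelled KO, at -0.51 ± 0.14 (SE).

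Rps27l, a paralog of Rps27 and a known target of p53, had 19.4, 22.5 and 19.5 CPM in WT Control 24 h and 24.1, 28.3 and 29.1 CPM in WT LPS 24 h. The change was 0.41 ± 0.17 (SE, edgeR adjusted p = 0.0493), close to the threshold, and the call was lost in 8 of 12 alternative settings. In libraries labelled KO the groups of Rps27l overlapped, with 30.5, 19.3 and 19.5 CPM against 27.1, 28.8 and 20.9 CPM, and the change was 0.17 ± 0.17 (SE, edgeR adjusted p = 0.450). Rps27 gave -0.28 and -0.29 and missed the threshold in both. Rpl22l1, the paralog of Rpl22, went the other way and fell from 9.55, 6.34 and 7.58 CPM to 4.62, 3.14 and 3.67 CPM in WT, a change of -1.01 ± 0.30 (SE, edgeR adjusted p = 0.00560). It gave -0.45 ± 0.29 (SE) in libraries labelled KO, where the groups overlapped. Rpl22 gave -0.18 in WT and was lower in libraries labelled KO, at -0.29. Rps27rt, at 6.07 to 16.2 CPM, gave -0.04 and -0.06. Rpl39 gave -0.27 in both genotypes without passing the test.

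Expressed as counts per 100 counts of the partner in the same library, Rpl7l1 went from 16.5 ± 0.35 to 25.99 ± 0.93 in WT and from 16.4 ± 0.63 to 28.6 ± 1.05 in libraries labelled KO (SD, n = 3). Rps27l went from 22.3 ± 1.86 to 36.1 ± 4.59 per 100 counts of Rps27 in WT, and from 24.97 ± 6.29 to 33.7 ± 4.70 in libraries labelled KO. Rpl36al went from 66.8 ± 5.88 to 97.0 ± 5.09 per 100 counts of Rpl36a in WT and from 63.0 ± 9.88 to 116.7 ± 20.7 in libraries labelled KO. Of these 3 ratios, those of Rpl7l1 and Rpl36al did not overlap between LPS and Control in either genotype, and that of Rps27l did not overlap in WT but did in libraries labelled KO. Such ratios carry no scaling between libraries, but reads shared by near-identical copies could be divided unevenly by the counting.

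**Figure D2:**
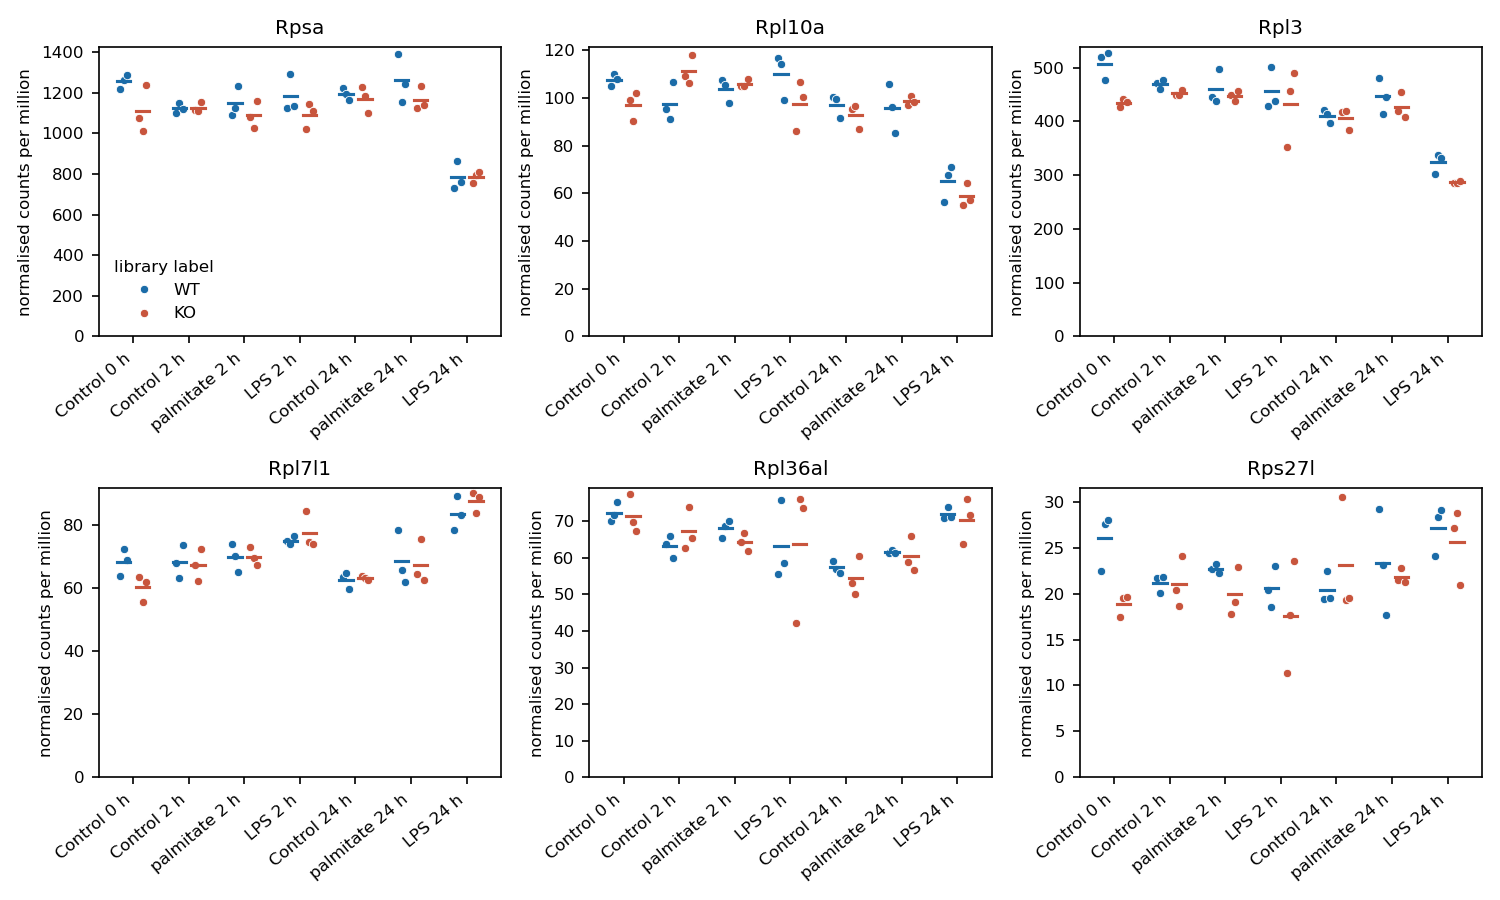
CPM of 6 members in each library (vertical axes from 0) by condition; points are libraries and bars are group means. Rpsa, Rpl10a and Rpl3 are lowest at LPS 24 h in both genotypes, while Rpl7l1 is highest there and Rpl36al lies above Control 24 h.

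The lists of members lower in WT and in libraries labelled KO overlapped, as did the lists of all genes called lower. Of the 29 lower members in WT, 25 were lower in libraries labelled KO, which is 86.2% of the WT list and 62.5% of the 40 in libraries labelled KO. Over all genes, the corresponding shares were 80.5% and 76.4%, so the overlap was not particular to the members. The 2 comparisons share no library. Over the 75 standard-set mRNAs the changes in the 2 genotypes had Pearson's r = 0.82 and Spearman's rho = 0.79 across genes, which are not independent replicates and share the libraries of each genotype. A difference of the LPS effect between genotypes passed for no member. The interaction at 24 h had 0 of 81 members called (edgeR's quasi-likelihood test, 2 at an unadjusted p under 0.05, 0 with DESeq2), against 0.0086% of all genes. The interaction at 2 h had 0 members called (9 at an unadjusted p under 0.05, 0 with DESeq2), against 0% of all genes.

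**Figure D3:**
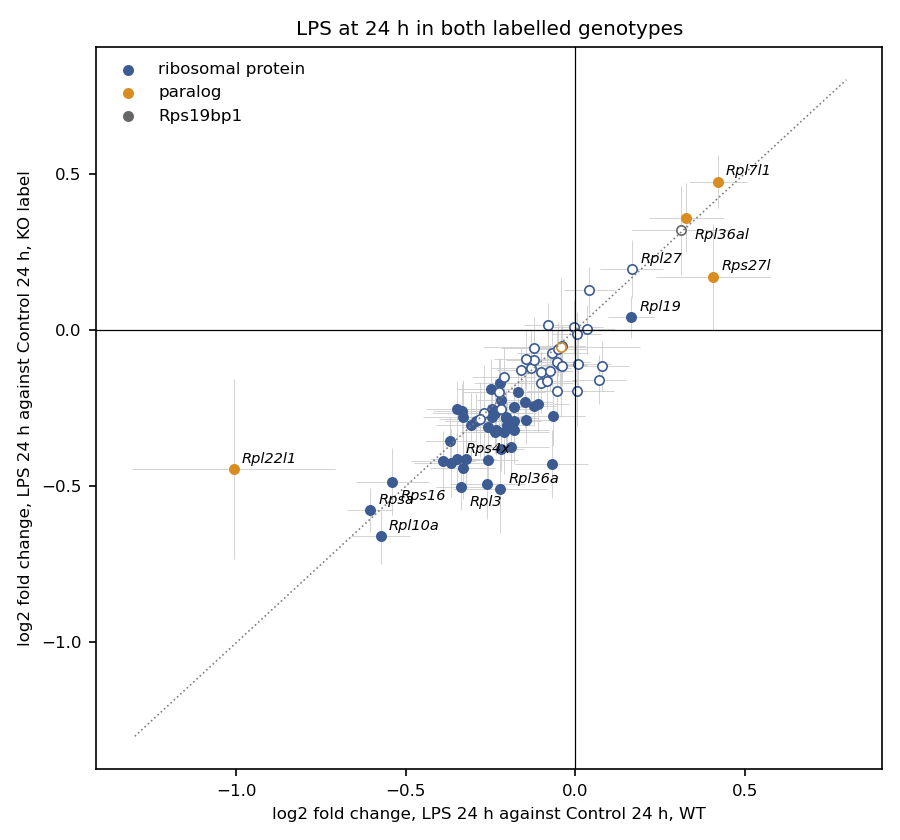
Log2 fold change of each member at LPS 24 h against Control 24 h in WT (horizontal axis) and in libraries labelled KO (vertical axis), with SE as grey lines; filled symbols were called in at least 1 genotype at an adjusted p under 0.05, open symbols in neither, and the dotted line marks equal change. Most of the 75 ribosomal proteins lie below 0 on both axes (64 of 75), and the paralogs Rpl7l1 and Rpl36al lie above 0 on both.

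At 2 h of LPS few members were called. In WT none of the 81 members was called (edgeR's quasi-likelihood test, 3 at an unadjusted p under 0.05, 0 with DESeq2), although 23.1% of all genes tested were called in either direction, and the median log2 fold change of the 75 was 0.06. The unscaled share went the other way: the 75 took 2.52% to 2.57% of all counts in WT Control 2 h and 2.32% to 2.48% in WT LPS 2 h, without overlap, and the TMM factors were 0.994 to 1.00 and 0.875 to 0.905. In libraries labelled KO, 2 members were lower, against 9.16% of all genes called lower. These were Rps25 and Rps29, both small subunit proteins, each at -0.37 ± 0.11 (SE, edgeR adjusted p = 0.0102 and 0.0108). Both calls rested on 1 library. Rps25 had 159, 170 and 181 CPM in Control 2 h and 79.0, 155 and 152 CPM in LPS 2 h, and Rps29 had 253, 226 and 258 CPM against 118, 222 and 219 CPM. Without that library, KO LPS 2 h replicate 1, 0 members were called. It is the shallowest of the series, at 2848793 counts, and 68 of the 75 mRNAs were lowest there within its group. Their level in it was 0.363 to 1.16 times the mean of the other 2 libraries, with a median of 0.725, lowest for Rpl39, and across the 75 genes this ratio had Spearman's rho = 0.42 with transcript length.

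The change from 2 to 24 h of LPS was tested directly. The LPS effect at 24 h was lower than at 2 h for 29 members and higher for 3, as the mean over both genotypes, where 24.5% of all genes were called lower and 21.7% higher. The median difference over the 75 was -0.16 log2 units. Rpsa, Rpl10a, Rpl13, Rpl3 and Rpl28 differed by -0.61, -0.61, -0.42, -0.37 and -0.45, and the 3 members with a higher effect at 24 h were the paralogs Rpl7l1 (0.28), Rpl36al (0.35) and Rps27l (0.41). The call of Rps27l was lost in 20 of 32 alternative settings, and none of the 3 paralogs passed within WT or within libraries labelled KO alone, where the edgeR adjusted p ranged from 0.05003 to 0.246. Within WT libraries 23 members were called and within libraries labelled KO 16, and without KO LPS 2 h replicate 1 the count was 48 over both genotypes.

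Other genes of protein synthesis, taken from lists of known genes, are read at LPS 24 h against the 19.9% (WT) and 21% (labelled KO) of all genes called lower and the 19.6% and 19.9% called higher. Of 20 tested genes of other translation proteins known for TOP mRNAs, 9 were lower in each genotype, among them the elongation factors Eef1a1 (-0.21 and -0.33), Eef2 (-0.26 and -0.25) and Eef1b2 (-0.59 and -0.60), and 1 was higher in WT. Of 40 genes of ribosome biogenesis, 10 were higher (25%) and 4 lower in each genotype, a share of higher calls near that of all genes. The 4 lower genes in WT included Myc, a transcription factor that drives ribosome synthesis, at -1.56. Of 23 genes of the mTORC1 pathway, 4 were higher and 7 lower in WT and 8 higher and 7 lower in libraries labelled KO, and Larp1 rose by 0.71 and 0.84. Mitochondrial ribosomal proteins, which make the ribosome of the mitochondrion, were never called lower: 29 of 76 were higher in WT and 27 in libraries labelled KO, with medians of 0.34 and 0.29. Of 38 proteasome subunits, 26 and 27 were higher, with medians of 0.38 in both. Of 15 p53 targets, 2 were higher and 5 lower in WT and 5 higher and 6 lower in libraries labelled KO, and of 8 noncoding hosts of snoRNAs 1 was higher in each.

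Other measures moved with LPS at 24 h. Macrophage markers summed to 16619 to 17455 CPM in WT Control 24 h and 18419 to 22673 CPM in WT LPS 24 h, and to 11148 to 11745 CPM and 13301 to 13457 CPM in libraries labelled KO, with 4 of 7 higher and 2 lower in each. Granulocyte precursor markers went from 239 to 316 CPM down to 125 to 154 CPM in libraries labelled KO, with 4 of 6 tested lower. Their WT sums, 149 to 158 CPM and 121 to 189 CPM, overlapped, with 3 lower and 1 higher. All 7 markers of dividing cells were lower in both genotypes, and their sum went from 371 to 393 CPM down to 107 to 125 CPM in WT and from 387 to 452 CPM down to 126 to 143 CPM in libraries labelled KO. The share of counts on ribosomal RNA rows was 8.06% to 8.31% in WT Control 24 h and 5.37% to 6.44% in WT LPS 24 h, and 8.58% to 8.82% and 5.31% to 6.40% in libraries labelled KO. Their part in the lower ribosomal protein mRNAs was not tested.

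**Figure D4:**
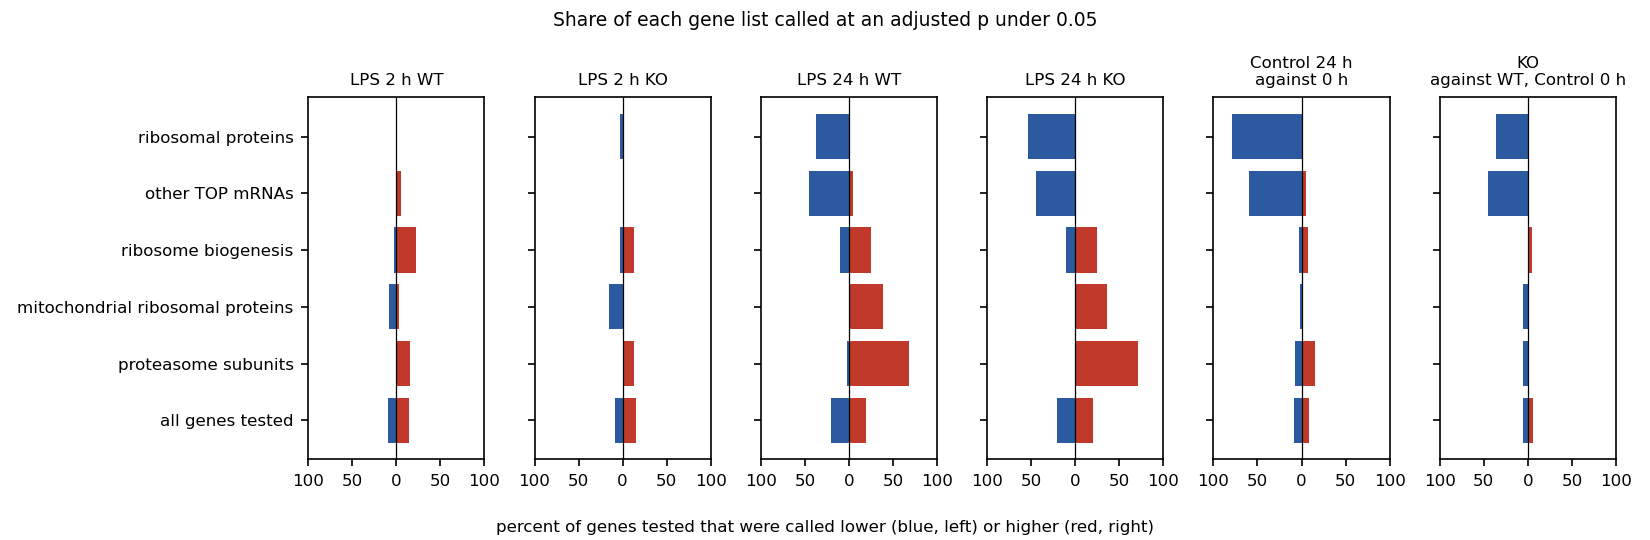
Percent of the tested genes of each list called lower (blue, to the left of 0) or higher (red, to the right) at an adjusted p under 0.05 in 6 comparisons; each panel runs to 100 percent on both sides. Cytosolic ribosomal proteins and other TOP mRNAs are called mostly in the lower direction at LPS 24 h, at Control 24 h against 0 h and in libraries labelled KO at Control 0 h, whereas mitochondrial ribosomal proteins and proteasome subunits are called mostly in the higher direction at LPS 24 h.

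Palmitate changed no member past the threshold. With edgeR's quasi-likelihood test 0 of 81 members were called at 2 h in WT (3 at an unadjusted p under 0.05), where 0.275% of all genes were called, and 0 in libraries labelled KO (0 at an unadjusted p under 0.05), where 0.112% were. At 24 h, 0 members were called in WT (2 at an unadjusted p under 0.05) and 0 in libraries labelled KO (0 at an unadjusted p under 0.05), against 0.852% and 0.877% of all genes. DESeq2 called 0 members in all 4. The medians of the 75 were 0.06 and -0.06 at 2 h and 0.08 and 0.03 at 24 h, in WT and in libraries labelled KO. Rpsa, for example, had 1221, 1192 and 1164 CPM in WT Control 24 h and 1392, 1154 and 1243 CPM in WT palmitate 24 h, and the groups overlapped. The change of the palmitate effect from 2 to 24 h also had 0 members called (1 at an unadjusted p under 0.05, 0 with DESeq2), against 1.28% of all genes. The interactions of palmitate with genotype had 0 members called at 2 h (5 at an unadjusted p under 0.05) and at 24 h (0 at an unadjusted p under 0.05), 0 with DESeq2, against 0% of all genes at both times.

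Time in untreated culture was accompanied by a broad decrease. Between Control 0 h and Control 24 h, as the mean over both genotypes, 61 of 81 members were lower and none was higher, against 8.62% of all genes called lower, and 59 of the 61 belonged to the standard set. The median over the 75 was -0.25 on the log2 scale against 0.01 over all genes, and the 75 lay between -0.37 and 0.00. Rpl4, a large subunit protein lining the exit tunnel, had 713, 673 and 754 CPM in WT Control 0 h and 580, 540 and 539 CPM in WT Control 24 h. In libraries labelled KO, Rpl4 went from 644, 655 and 690 CPM to 554, 568 and 499 CPM. Both genotypes showed no overlap, and the mean change of Rpl4 was -0.33 ± 0.04 (SE, edgeR adjusted p = 9.96e-08).

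Rps9, which takes part in decoding accuracy, changed by -0.36 ± 0.05, Rpl14 by -0.37 ± 0.06 and Rps3, at the mRNA entry channel, by -0.29 ± 0.05 on the log2 scale (SE). Rps7 and Rpl13a were among the smallest adjusted p-values, at -0.34 ± 0.05 and -0.31 ± 0.05 (SE). Among the paralogs, Rpl36al (-0.36 ± 0.08) and Rps27rt (-0.47 ± 0.16) were lower (SE). Rpsa, with a change of 0.00, and Rpl10a, with -0.11, were among those that did not pass, although both fell under LPS. Within WT libraries alone 66 members were lower, with a median of -0.34 over the 75, against 6.42% of all genes. Within libraries labelled KO alone 15 were lower, with a median of -0.14, against 4.47% of all genes. The difference between genotypes from 0 to 24 h alone was not tested. At 2 h only 3 members were lower than at 0 h, Rplp1 (-0.22 ± 0.05), Rpl13a (-0.16 ± 0.05) and Rplp0 (-0.15 ± 0.05, SE), against 7.36% of all genes called lower, with 9 in WT libraries alone and 0 in libraries labelled KO alone.

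Markers of other cells moved over the same 24 h. Granulocyte precursor markers summed to 94.5 to 109.9 CPM at 0 h and 149 to 158 CPM at 24 h in WT, and to 131 to 150.01 CPM and 239 to 316 CPM in libraries labelled KO, with 3 of 6 tested called higher. Macrophage markers went from 14718 to 15222 CPM up to 16619 to 17455 CPM in WT and overlapped in libraries labelled KO, with 2 of 7 called higher and 3 lower. Fibroblast markers went from 0.517 to 0.883 CPM up to 2.86 to 47.5 CPM in WT, where the mean at 24 h was 17.8 CPM. In libraries labelled KO they had 43.3 to 70.0 CPM at 0 h and 41.8 to 139 CPM at 24 h, and 0 of 3 tested were called (edgeR). All calls in this paragraph are for the mean over both genotypes and not for WT alone. The part of these markers in the lower ribosomal protein mRNAs was not tested.

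The number of members called between genotypes differed by condition. At Control 0 h, 27 of 81 members were lower in libraries labelled KO and none higher, against 6.06% of all genes called lower, with a median of -0.22 over the 75 and 0.00 over all genes. Rpl10 had 519, 540 and 563 CPM in WT and 435, 437 and 449 CPM in libraries labelled KO, without overlap, a difference of -0.30 ± 0.07 (SE, edgeR adjusted p = 0.00222). Rps24, a small subunit protein mutated in Diamond-Blackfan anaemia, had 553, 533 and 592 CPM against 443, 434 and 461 CPM and differed by -0.33 ± 0.08 (SE, edgeR adjusted p = 0.00323). The largest differences were those of Rpl39 (-0.47 ± 0.15), Rpl36a (-0.44 ± 0.13) and Rps29 (-0.42 ± 0.11, SE), followed by Rps16 at -0.40. Rpl27a, Rps20 and Rps16 were also among the smallest adjusted p-values, at -0.37, -0.33 and -0.40. The count rested on single libraries, since 6 members were called without KO Control 0 h replicate 1, without KO Control 0 h replicate 2 or without WT Control 0 h replicate 3.

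In the other conditions no member was called between genotypes, although the 75 lay mostly below 0 in some of them. At Control 2 h 36 of the 75 were below 0, at palmitate 2 h 74 and at LPS 2 h, with the shallowest library, 70. The numbers at Control, palmitate and LPS 24 h were 49, 67 and 63. At palmitate 2 h, 36 of the 75 were lower without overlap, against 16.1% of all genes without overlap in either direction. The difference at Control 0 h was not tested against those with palmitate or LPS. With edgeR's quasi-likelihood test 0 members were called at Control 2 h (2 at an unadjusted p under 0.05), palmitate 2 h (18), LPS 2 h (26), Control 24 h (0), palmitate 24 h (8) and LPS 24 h (8), where the number at an unadjusted p under 0.05 is in parentheses. DESeq2 called 1 member at palmitate 2 h and 0 in the other 5. The shares of all genes called were 0.49%, 0.146%, 0.465%, 0.12%, 0.0688% and 0.146% in the same order, and the medians of the 75 were 0.00, -0.13, -0.14, -0.03, -0.07 and -0.06. Rps24 at Control 24 h, for example, had 446, 447 and 444 CPM in WT and 455, 446 and 417 CPM in libraries labelled KO, and the groups overlapped. The difference at Control 0 h was tested against the mean of those at Control 2 h and 24 h, and 7 members passed, all lower, against 2.75% of all genes. These were Rps24, Rpl10, Rpl17, Rpl27a, Rpl30, Rps29 and Rpl5, with differences between -0.29 and -0.44 log2 units, and without KO Control 0 h replicate 1 or without WT Control 0 h replicate 3 none of the 81 was called. Control 0 h libraries enter both this comparison and that over time in culture, so the 2 results are not independent.

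The Control 0 h libraries of the 2 genotypes also differed in other measures. Granulocyte precursor markers summed to 94.5 to 109.9 CPM in WT and 131 to 150.01 CPM in libraries labelled KO, and 1 of 6 tested was higher. Markers of dividing cells summed to 333 to 394 CPM and 407 to 483 CPM, and 1 of 7 was higher. Neither sum overlapped between genotypes. Markers of fibroblasts summed to 0.517 to 0.883 CPM in WT and 43.3 to 70.0 CPM in libraries labelled KO, with all 3 of the tested markers higher and Dcn and Pdgfra below 1 CPM in every library of the series. The 7 macrophage markers summed to 14718 to 15222 CPM in WT and 10534 to 14271 CPM in libraries labelled KO, and 4 were lower and 1 higher. These 7 include Lyz2, the locus that carries Cre in KO mice. Lyz2 had 10146 to 10238 CPM in WT and 5377 to 8766 CPM in libraries labelled KO, with TMM scaling. Long noncoding RNA rows took 0.507% to 0.639% of counts in WT and 0.934% to 0.987% in libraries labelled KO, and ribosomal RNA rows 9.37% to 9.51% and 7.80% to 8.55%. At Control 24 h, fibroblast markers summed to 2.86 to 47.5 CPM in WT and 41.8 to 139 CPM in libraries labelled KO. Their part in the lower ribosomal protein mRNAs at Control 0 h was not tested.

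**Figure D5:**
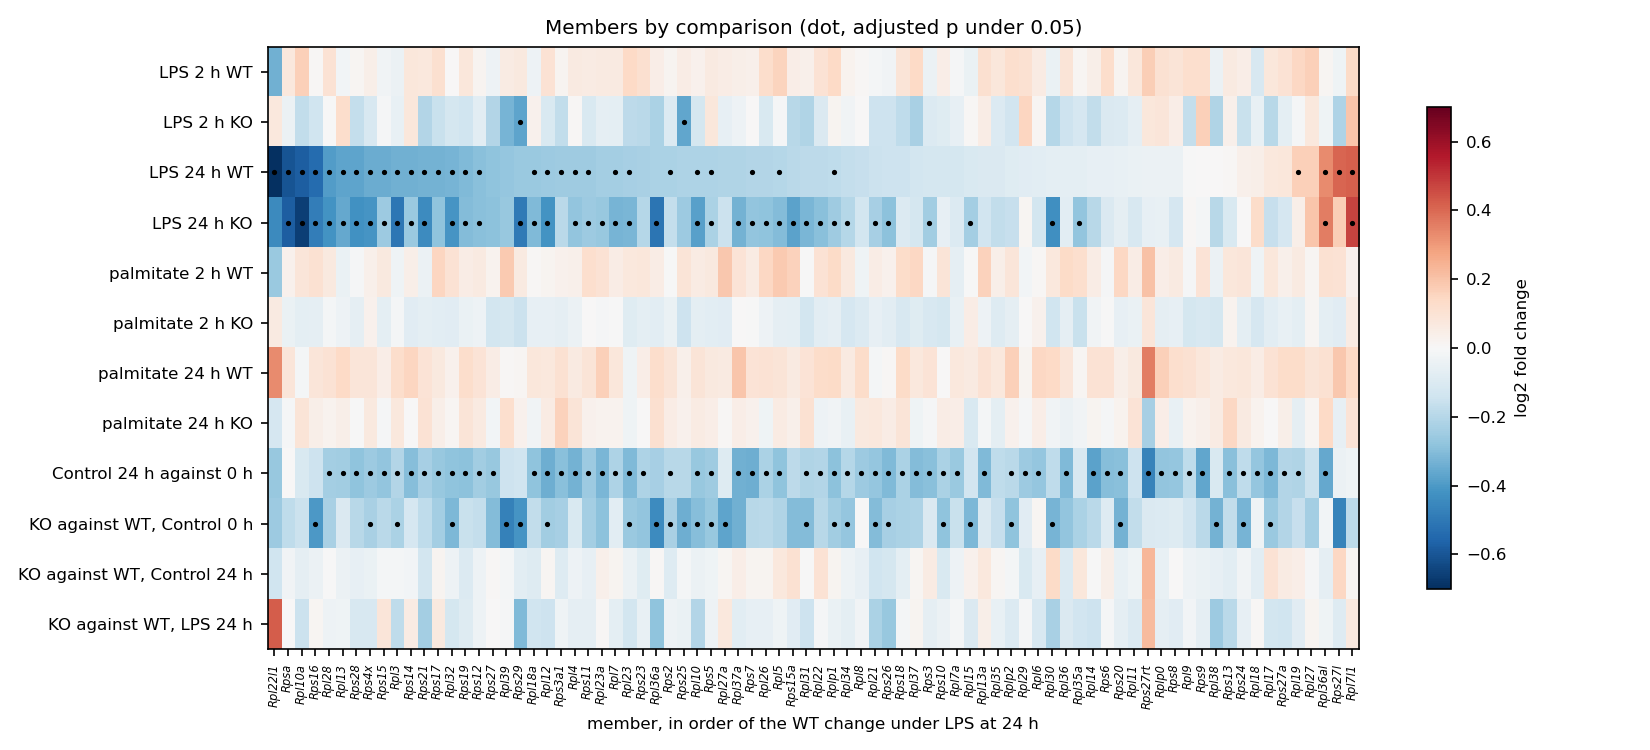
Log2 fold change (colour, blue lower and red higher) of 80 members, ordered by the WT change at LPS 24 h, in 12 comparisons (rows); a dot marks an adjusted p under 0.05. Dots cover most of the row of Control 24 h against 0 h and part of the rows of LPS 24 h and of KO against WT at Control 0 h, and are absent from the palmitate rows and from KO against WT at Control 24 h and LPS 24 h; colours are cut at 0.7.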

How the data were processed

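The authors deposited raw counts per gene for 42 libraries of BMDM, made from total RNA with a stranded kit and ribodepletion. Per the submitters' processing notes, the tools were fastp 0.19.11 and STAR 2.7.3a. The study's methods give mm10 as the genome, and the annotation release, the use of strand and the treatment of reads with several matches are not given in the sources used here. Ensembl identifiers were paired with symbols, positions and types through GENCODE vM21 (GRCm38). All count columns were used, and the columns name groups but not replicates, so library numbers follow column order and pair nothing. Within each group every pair of libraries differed by more than sampling noise.

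Counts were tested in R 4.3.3 with edgeR 4.0.16 (filterByExpr, TMM scaling, 1 mean per group, quasi-likelihood F test, Benjamini-Hochberg adjustment over 11624 genes). The members and lists were chosen with earlier results of these data known. SE was taken as |log2 fold change| over the root of the F statistic. CPM of members used TMM-scaled library sizes, and sums of cell-type markers are CPM of the total count. With 3 counts as a floor, a gene at 0 allows 0.387 to 1.05 CPM, for counting error only. Alternatives were RLE factors, TMM factors without the members, no filter, only the libraries compared, DESeq2 1.42.0, counts with pseudogenes added and leaving out each library. For each comparison, called members with the smallest adjusted p (up to 5 per direction) or the largest change (up to 3 per direction) were named, along with paralog pairs and a fixed set of well-known members. Outside this rule, Rpl12 and Rpl4 at LPS 24 h, Rps24 at Control 24 h and Rpl18, Rps13 and Rpl27 for their levels were named after their values were seen. The test was checked on counts simulated for LPS 24 h in WT. It recovered 60% of genes set to 0.7 times their level and 70% of those set to 1.5 times. For 0.5 and 2 times, 96% and 94% were recovered, and 4.76% of calls were false. Smaller changes were not simulated, so the check does not cover them. Levels per kilobase use the shortest principal transcript, and 16 members overlap another gene with at least 10 counts on average.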

Additional observations from a re-analysis of the deposited data

Results flagged for a closer look

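The LPS effect on ribosomal protein mRNAs differed between the 2 times: 32 members were called for the difference between 24 h and 2 h (edgeR's quasi-likelihood test on the mean over both genotypes), 29 lower and 3 higher, while 2 h of LPS had changed none in WT.

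The difference between genotypes at Control 0 h differed from the mean of that at Control 2 h and 24 h for 7 members (edgeR's quasi-likelihood test), all lower in libraries labelled KO at 0 h, and for 0 to 8 members when single libraries were left out.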

How the results depend on the processing

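No paired analysis was possible because the columns of the count table carry no replicate numbers. Member calls kept their direction in all 1864 repeats of the 101 named results, and 254 of these repeats missed the threshold. The named results were chosen because they were called, and the repeats used largely the same libraries. A kept direction is therefore little evidence of stability. With all genes of at least 1 count, 10 members were called for LPS 2 h KO, 19 for Control 0 h minus the mean of Control 2 h and 24 h, 1 for KO against WT at palmitate 2 h, 11 at LPS 2 h and 2 at LPS 24 h, and 1 for the interaction at LPS 2 h. With only the libraries compared, the counts were 0 for LPS 2 h KO, 6 for Control 2 h against 0 h, 5 for KO against WT at palmitate 2 h and 32 for the difference at Control 0 h from the later times. DESeq2 called 1 member at palmitate 2 h between genotypes. Within WT libraries, 9 members were called for Control 2 h against 0 h, and within libraries labelled KO 0, with 15 for Control 24 h against 0 h and 16 for the change of the LPS effect. The cause was not tested. These within-genotype fits were added after seeing the data.

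Leaving out single libraries gave 0 to 1 members for LPS 2 h WT, 0 to 18 for LPS 2 h KO, 19 to 44 for LPS 24 h WT, 34 to 40 for LPS 24 h KO, 1 to 5 for Control 2 h against 0 h, 50 to 62 for Control 24 h against 0 h, 6 to 22 for KO against WT at Control 0 h, 0 to 4 at LPS 2 h, 26 to 48 for the change of the LPS effect and 0 to 8 for the difference at Control 0 h from the later times. It gave 0 in the other 14 comparisons. The LPS 2 h KO count was 18 without KO LPS 2 h replicate 3 and 11 without replicate 2, and Control 2 h against 0 h gave 5 without WT Control 0 h replicate 2 and 1 without KO Control 0 h replicate 3 or KO Control 2 h replicate 2. Rpl19 and Rps27l at LPS 24 h in WT passed in 2 and 4 of 12 alternatives, and Rpsa, Rpl10a and Rpl7l1 in all 12. Low counts limit Rpl22l1 and Rps27rt, with 1858 and 2701 counts over all libraries.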
